A study of Mus musculus with 12 samples.

Results

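The 9 genes described here were chosen by symbol for their roles in the uptake of docosahexaenoic acid (DHA) by the brain and in the exchange of fatty acids between phospholipids. They were Mfsd2a, Fabp3, Fabp5, Fabp7, Acsl3, Acsl6, Pla2g6, Pla2g4a and Lpcat3. All 9 were found, by Ensembl identifier, among the 53379 gene rows of the count table. They were chosen by role and not by a rule on measured values, but with earlier results of these data known. The libraries were bulk RNA sequencing of brain from wild-type C57BL/6J mice, which the series text describes as injured cortex, collected 6 months after injury. No gene was altered in any group. The 4 groups of 3 libraries crossed diet with injury. Purified sham mice had a purified control diet without interruption and a sham procedure. Purified injured mice had the same diet and repeated closed head impacts milder than mild traumatic brain injury, which the labels call rlmTBI. Fish oil sham and fish oil injured mice had a high-fat diet with added fish oil, given in cycles, with the sham procedure or with rlmTBI. The diets differed in fat content and in schedule as well as in fish oil, so these cannot be told apart. The labels give no age or sex, and they tie no library to a named animal. The p-values below therefore speak of differences beyond the spread among libraries, which may in part be technical.

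Markers of neurons, astrocytes, oligodendrocytes, microglia and endothelium were all detected in each of the 12 libraries. Levels below are in CPM, read counts relative to the scaled size of each library. Purified injured replicate 3 stood apart by transcripts of the olfactory bulb, a forebrain structure in front of the cortex. Its 8 tested olfactory bulb markers summed to 1214 CPM, against 125 to 366 CPM in the other 11 libraries, and Cdhr1, a gene of the bulb's output neurons, was at 522 CPM against at most 25.9 CPM elsewhere. Fish oil sham replicate 2 had the highest summed striatal markers, 2176 CPM against 167 to 882 CPM elsewhere. Choroid plexus markers summed to 249 to 2755 CPM in fish oil injured libraries, to 499 CPM in purified sham replicate 3 and to 24.5 to 67.7 CPM in the other 8. Total counts per library ran from 46362158 to 70754854.

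DHA is a long-chain polyunsaturated fatty acid of fish oil that is concentrated in the membranes of neurons and is taken up by brain mainly from blood. Mfsd2a, in the endothelial cells of brain capillaries, carries it across the blood-brain barrier as lysophosphatidylcholine, a phospholipid with a single fatty acid chain, and also restrains vesicle traffic through these cells. Inside cells, fatty acid binding proteins (Fabp) hold the fatty acid in solution and long-chain acyl-CoA synthetases (Acsl) activate it with coenzyme A. Phospholipases A2 (Pla2g) release fatty acids from membrane phospholipids, and the acyltransferase Lpcat3 attaches polyunsaturated chains to lysophospholipids again.

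The upstream sequences of Mfsd2a and Fabp7 are shown because these 2 transcripts were both highest in the same library, as described further on. Pla2g4a, whose sequence is not shown, was highest in that library as well. Each is the sequence before the RefSeq start site in GRCm38.p6, on the gene's own strand, ended where the annotated gene begins. The Mfsd2a window lies on the minus strand at chr4:122961189-122961438, and the Fabp7 window on the plus strand at chr10:57784673-57784880. The capitals mark ATTGG, which is CCAAT on the other strand.
Mfsd2a: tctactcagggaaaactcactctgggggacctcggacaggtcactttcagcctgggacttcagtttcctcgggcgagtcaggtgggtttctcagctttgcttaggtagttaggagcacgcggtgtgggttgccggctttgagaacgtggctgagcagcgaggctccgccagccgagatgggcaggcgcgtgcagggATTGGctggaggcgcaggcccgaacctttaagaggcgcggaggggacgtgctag
Fabp7: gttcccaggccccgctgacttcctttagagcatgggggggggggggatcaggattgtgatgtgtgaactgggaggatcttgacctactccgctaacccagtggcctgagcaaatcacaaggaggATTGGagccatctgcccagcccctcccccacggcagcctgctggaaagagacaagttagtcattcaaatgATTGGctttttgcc
The match in Mfsd2a lies at positions -54 to -50, counted back from the base before the start site, which is -1. The matches in Fabp7 lie at -126 to -122 and -56 to -52. Windows of the 250 bases before a start site were available for 8 of the 9 genes, with 11 start sites in all. CCAAT on either strand was in 7 of the 11 windows, from 6 genes (Acsl3, Mfsd2a, Lpcat3, Fabp7, Acsl6 and Pla2g6), and in 33.8% of 32851 windows of all genes. It was in no window of Pla2g4a or Fabp3. GGGCGG on either strand was in 6 of the 11 windows, from Acsl3, Lpcat3, Acsl6 and Pla2g6, and in 32.7% of all windows. TATAAA was in 1 window, the second start of Pla2g4a, and in 12.4% of all windows. CACGTG was in none of the 11 and in 6.02% of all windows. The nuclear receptor motifs DR1 and DR4 were in none of the 11 and in 0.0335% and 0.0152% of all windows. No overlap between motifs was removed, and a match describes letters only.

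Among the 9 genes, abundance per length differed widely. It was measured as RPKM, which is CPM divided by the kilobases of all annotated exons of a gene. Fabp3 had the highest median over the 12 libraries, 55.3 RPKM, followed by Acsl3 at 54.0, Acsl6 at 31.0, Fabp5 at 18.6 and Fabp7 at 13.99 RPKM. Mfsd2a was at 4.73, Lpcat3 at 3.88, Pla2g6 at 2.43 and Pla2g4a at 0.562 RPKM. The ranges over libraries overlapped for the neighbours Fabp3 and Acsl3, Fabp5 and Fabp7, and Mfsd2a and Lpcat3, and those of Fabp7 also overlapped with several others. The order of the more abundant genes depended on the length used. With the length of the principal transcript, 2594 bases in place of 9914 for Acsl6 and 987 in place of 3567 for Fabp5, their medians were 118 and 67.1 RPKM, above Acsl3 at 59.6 and Fabp3 at 55.3 RPKM. Pla2g4a had the lowest median under both lengths.

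**Figure D1:**
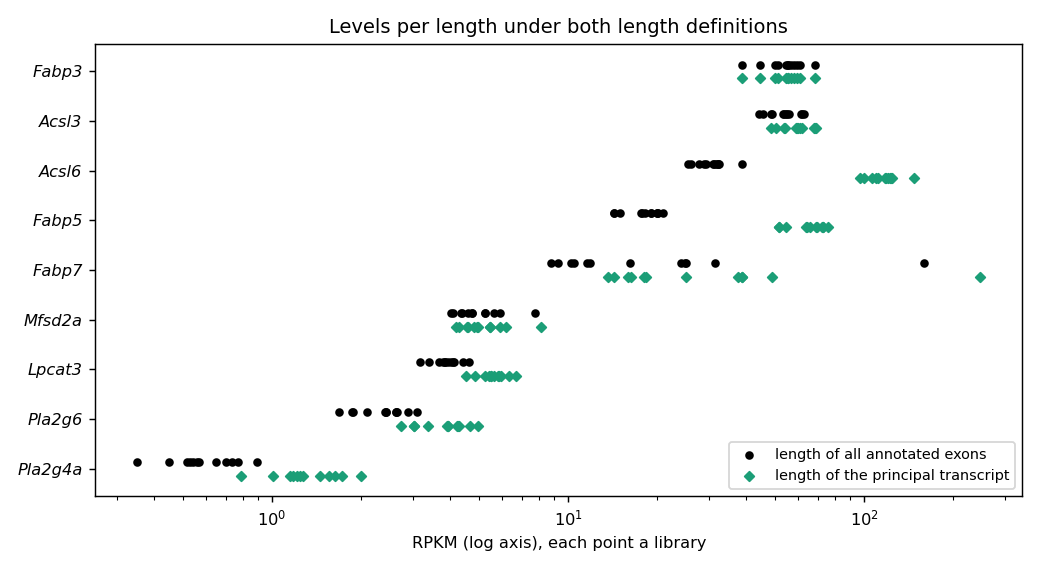
RPKM (log axis) of the 9 genes, with 1 point for each of the 12 libraries, calculated with the length of all annotated exons (black circles) and of the principal transcript (green diamonds). The values for Acsl6 and Fabp5 move most between the lengths, Fabp7 is widely spread, and Pla2g4a is lowest under both.

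None of the 9 genes passed an adjusted p of 0.05 in any of the 7 comparisons. These were injury within each diet, diet within sham and within injured mice, both averages, and the interaction of diet and injury. The test was edgeR's quasi-likelihood test with Benjamini-Hochberg adjustment over 19252 genes. The background was the same, since 0 of 19252 genes passed in each comparison, which is 0% called. At an unadjusted p under 0.05, 2 of the 9 genes (Fabp7 and Acsl3) stood out for injury on the purified diet, where 6.5% of all genes did. The same 2 did for diet in injured mice, where 10.7% of all genes did, and for the interaction, with 5.76% of all genes. All of these comparisons use the purified injured libraries, as does injury averaged over diets, for which Fabp7 stood out, against 3.6% of all genes. For injury on the fish oil diet, diet in sham mice and diet averaged over injury states, 0 of 9 did, against 3.48%, 3.69% and 8.85% of all genes. DESeq2 and limma-voom also passed 0 of the 9 in each comparison, while DESeq2 passed 3 to 186 of all genes and limma-voom 0 to 2.

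Median log2 fold changes of the 9 genes lay near those of all genes. They were 0.09 for injury on the purified diet, 0.05 for injury on the fish oil diet, -0.04 for diet in sham mice and -0.05 for diet in injured mice, and those of all genes lay between -0.01 and 0.01. The signs were mixed, with 5 of 9 above 0 for injury on the purified diet, 6 for injury on the fish oil diet and 4 for diet in each injury state. Groups of 3 that did not overlap were found for 2 of 9 genes for injury on the purified diet (Acsl3 and Acsl6, both lower in injured libraries), against 11.6% of all genes. They were found for 1 of 9 for injury on the fish oil diet (Lpcat3, lower in injured libraries; 10.2% of all genes) and 2 of 9 for diet in sham mice (Fabp7 and Lpcat3, both higher on fish oil; 13.8%). They were found for 0 of 9 for diet in injured mice, against 11.6% of all genes.

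**Figure D2:**
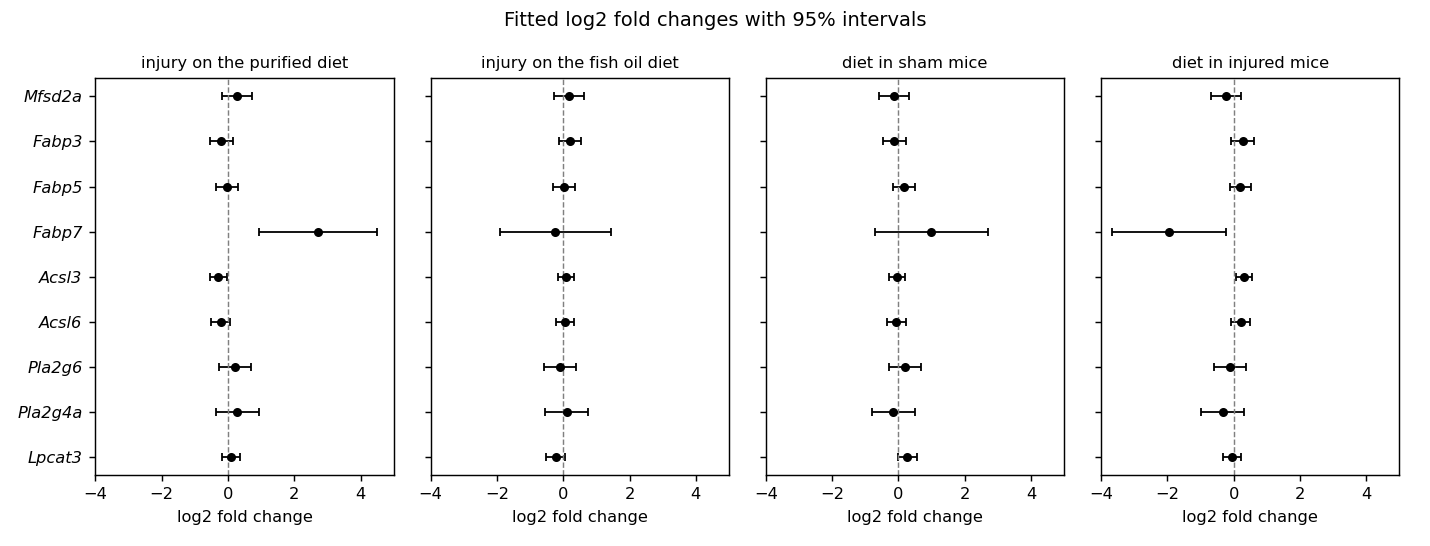
Fitted log2 fold changes of the 9 genes with 95% intervals in the 4 pairwise comparisons, injured over sham or fish oil over purified. Most intervals cover 0 and are narrow beside that of Fabp7, which was 2.70 for injury on the purified diet with an interval from 0.92 to 4.49.

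**Figure D3:**
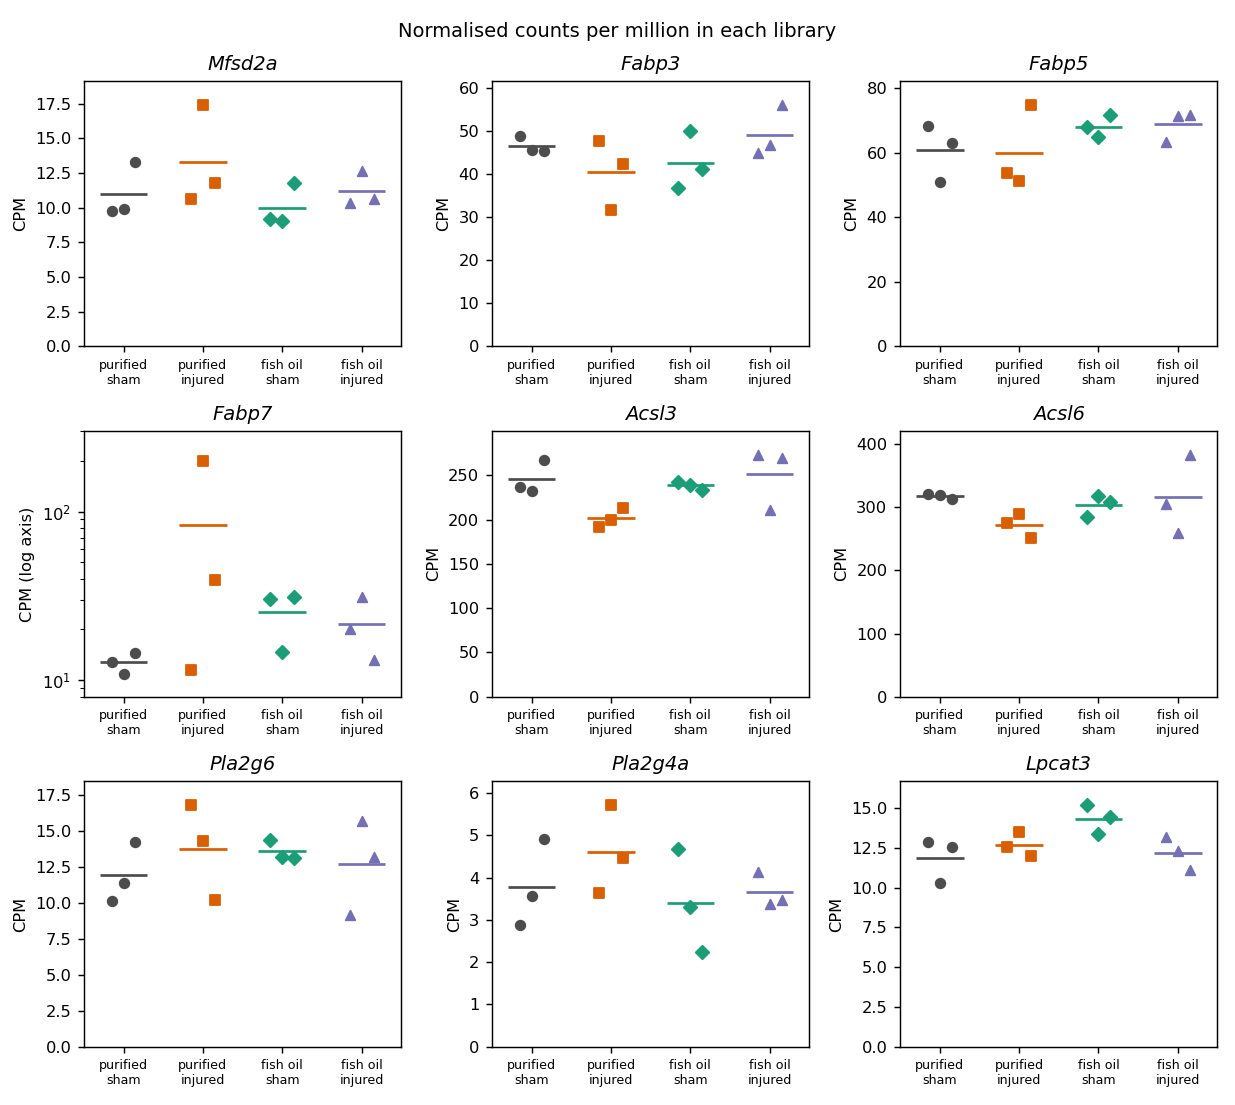
CPM of each gene in each library, with 1 point per library in replicate order and a line at the group mean (Fabp7 on a log axis, the others from 0). The groups overlap for most genes. In Mfsd2a, Fabp7 and Pla2g4a the highest point is purified injured replicate 3.

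Mfsd2a, the transporter of DHA-carrying lysophosphatidylcholine, lies on the minus strand at chr4:122946850-122961188. It stood at 9.79, 9.88 and 13.3 CPM in the purified sham libraries and at 10.6, 17.4 and 11.8 CPM in the purified injured ones. It stood at 9.20, 9.03 and 11.8 CPM in fish oil sham and at 10.4, 12.7 and 10.6 CPM in fish oil injured libraries. All groups overlapped, and purified injured replicate 3 was the highest library. The group means were 10.99 ± 2.00, 13.3 ± 3.61, 10.001 ± 1.53 and 11.2 ± 1.26 CPM (SD, n = 3) in that order. The log2 fold change of fish oil over purified, averaged over injury states, was -0.19 ± 0.15 (SE; 95% interval -0.51 to 0.13; edgeR adjusted p = 0.686). The fold change of injured over sham was 0.27 ± 0.21 on the purified diet and 0.17 ± 0.21 on the fish oil diet. Without purified injured replicate 3, injury on the purified diet was at 0.04 ± 0.19 and the diet average at -0.065 ± 0.13. Other left-out libraries moved these values the other way. Injury on the purified diet was at 0.43 without purified sham replicate 4, and the diet average at -0.25 without purified injured replicate 2.

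Mfsd2a belongs to endothelial cells in brain, so it was set beside 15 endothelial markers, all of them detected in every library. The summed level of these markers was 209 to 282 CPM in purified sham, 165 to 214 in purified injured, 128 to 161 in fish oil sham and 119 to 149 in fish oil injured libraries. For diet averaged over injury states, all 15 of 15 markers had log2 fold changes under 0. In the 4 pairwise comparisons 12 to 15 of 15 did. The median for the diet average was -0.57, that of all genes was 0.01, and Mfsd2a was at -0.19. None of the 15 passed the edgeR test across genes, adjusted. In bulk tissue, fewer endothelial cells and less RNA per endothelial cell cannot be told apart.

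Within each library, log2 CPM of Mfsd2a minus the mean log2 CPM of the 15 markers was -0.0045, -0.24 and 0.014 in purified sham libraries. It was 0.16, 0.82 and 0.58 in purified injured, 0.47, 0.12 and 0.78 in fish oil sham, and 0.53, 1.14 and 0.50 in fish oil injured libraries. Each of the other 9 libraries stood above all 3 purified sham libraries, and the other 3 groups overlapped with each other. The endothelial mean was itself highest in purified sham, at 3.52, against 3.18 in purified injured, 2.86 in fish oil sham and 2.77 in fish oil injured. A gene of constant log2 CPM would therefore also stand higher against it in those groups. The share of all genes that separate in this way was not calculated. The differences between groups were tested two-sided by an exact permutation of the libraries inside each stratum, with 400 arrangements and a smallest possible p of 0.005. Fish oil minus purified, averaged over injury states, was 0.37 (exact permutation p = 0.065, 0.0867 adjusted over 4 tests). Injured minus sham, averaged over diets, was 0.43 (exact permutation p = 0.05, 0.0867 adjusted). Neither passed after adjustment. For the endothelial mean itself, fish oil minus purified was -0.54 (exact permutation p = 0.005, the smallest possible, 0.02 adjusted) and injured minus sham was -0.22 (exact permutation p = 0.09, 0.09 adjusted). The marker list was chosen with earlier results of these data known, so these p-values are not independent of those results. Without the libraries with the highest olfactory bulb and striatal markers, purified injured replicate 3 and replicate 2 of fish oil sham, the first difference was 0.44 and the second 0.36.

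**Figure D4:**
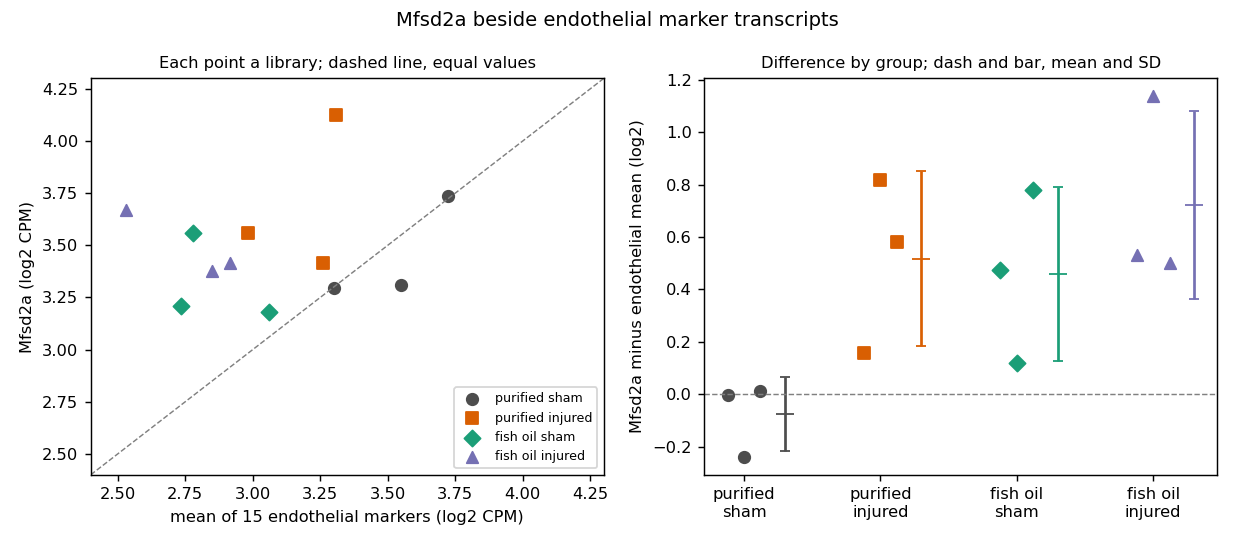
Left, log2 CPM of Mfsd2a against the mean log2 CPM of 15 endothelial markers, with 1 point per library and a dashed line at equal values; right, the difference of both by group, with points for libraries and a dash and bar for mean and SD. The 3 purified sham libraries lie on or under the line of equal values or just above it, and the other 9 libraries lie above them. The group mean of the endothelial markers is itself highest in purified sham.

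Fabp7, the brain-type fatty acid binding protein of radial glia, astrocytes and the ensheathing glia of the olfactory bulb, binds DHA with high affinity. It lies at chr10:57784881-57788450. Fabp7 stood at 12.8, 10.9 and 14.5 CPM in purified sham libraries and at 11.5, 199 and 39.3 CPM in purified injured libraries. It stood at 30.2, 14.8 and 31.2 CPM in fish oil sham and at 20.2, 31.2 and 13.1 CPM in fish oil injured libraries. The value of 199 CPM is that of purified injured replicate 3, the library with the highest olfactory bulb markers. All 3 fish oil sham libraries were above the purified sham libraries, the lowest of them by a small margin.

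The highest Fabp7 library was 18.2-fold above the lowest, the widest span of the 9 genes. Its biological coefficient of variation, the spread between libraries of a group beyond counting error, was 61.8%, at the 92.3rd percentile of all genes tested, whose median was 22.7%. For injury on the purified diet the log2 fold change was 2.70 ± 0.81 (SE; unadjusted p = 0.00666, edgeR adjusted p = 0.763). Without purified injured replicate 3 it was 1.01 ± 0.52 (edgeR adjusted p = 0.861). For diet in injured mice it was -1.95 ± 0.78 (edgeR adjusted p = 0.43), and -0.25 ± 0.52 without that library. For diet in sham mice, which that library does not enter as a value, it was 0.99 ± 0.77 (edgeR adjusted p = 0.934). The interaction was -2.94 ± 1.097 with all libraries and -1.25 ± 0.70 without purified injured replicate 3. Injury on the fish oil diet was at -0.24 ± 0.76.

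**Figure D5:**
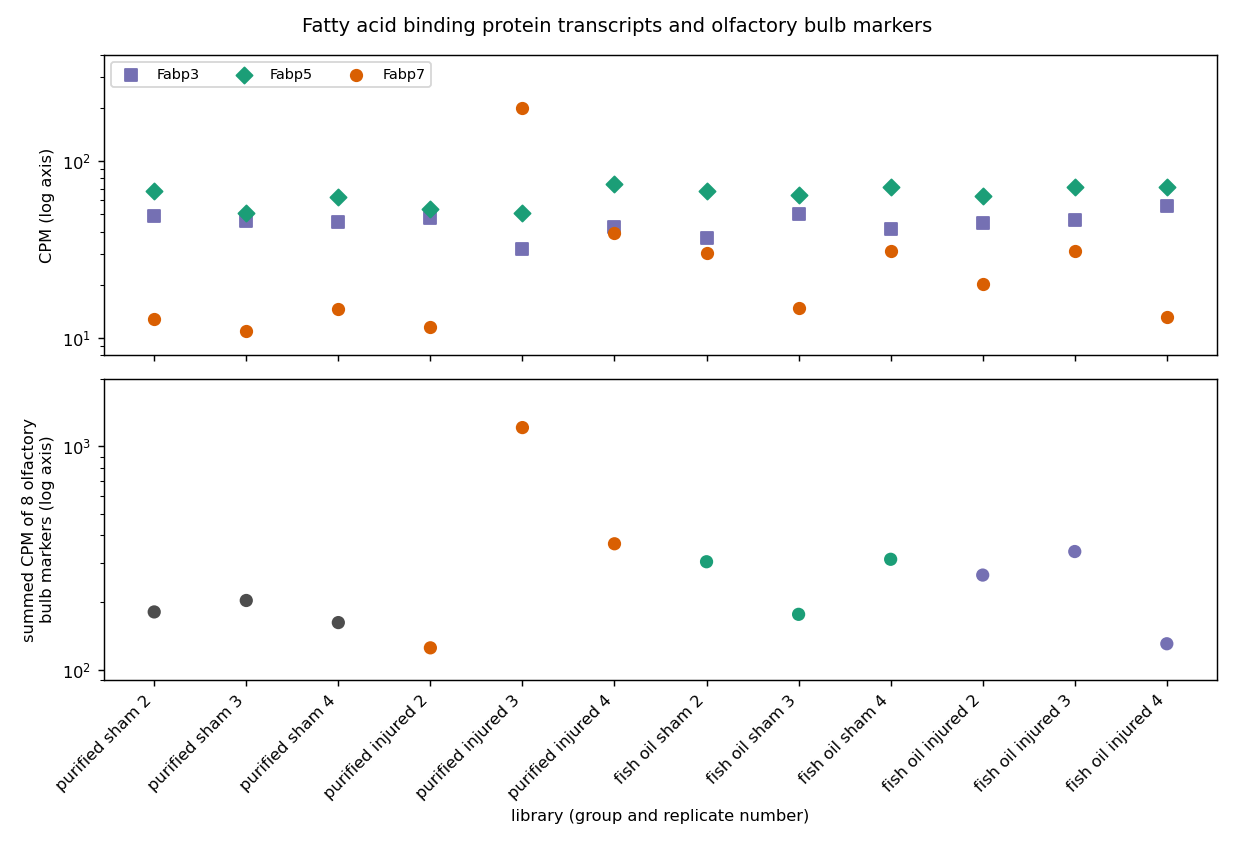
Top, CPM (log axis) of Fabp3, Fabp5 and Fabp7 in each library, each gene to be read across libraries only since CPM is not per length; bottom, summed CPM of 8 olfactory bulb markers (log axis). Purified injured replicate 3 has the highest Fabp7, the lowest Fabp3 and the highest marker sum, 1214 CPM.

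Fabp3, the heart-type protein found in mature neurons, lies at chr4:130308595-130315463. It stood at 48.8, 45.7 and 45.4 CPM in purified sham, 47.7, 31.8 and 42.3 in purified injured, 36.7, 49.98 and 41.3 in fish oil sham, and 44.9, 46.7 and 56.1 CPM in fish oil injured libraries. The groups overlapped, and the lowest 2 libraries were replicate 3 of purified injured and replicate 2 of fish oil sham, those with the highest olfactory bulb and striatal markers. The log2 fold change of injury was -0.20 ± 0.16 on the purified diet and 0.21 ± 0.16 on the fish oil diet, with an interaction of 0.41 ± 0.22 (unadjusted p = 0.0946). Diet in injured mice was at 0.28 ± 0.16 (edgeR adjusted p = 0.546). Without both of these libraries, injury was at -0.037 on the purified and 0.10 on the fish oil diet, diet in injured mice at 0.12 and the interaction at 0.14. Leaving out replicate 3 of purified injured alone gave -0.036 for injury on the purified diet and 0.12 for diet in injured mice. Fabp3 shares 81 exon bases with Zcchc17 on the opposite strand, whose median level was 45.3 CPM, and how reads there were assigned is not known.

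Fabp5, the epidermal-type protein, which is found in brain endothelium as well as in neurons and glia, lies at chr3:10012548-10016607. It stood at 68.3, 50.9 and 63.0 CPM in purified sham, 53.6, 51.1 and 74.7 in purified injured, 67.8, 64.7 and 71.5 in fish oil sham, and 63.3, 71.4 and 71.8 CPM in fish oil injured libraries. The fish oil libraries all lay within the range of the purified ones, which was wider. Fish oil over purified, averaged over injury states, was 0.18 ± 0.11 on the log2 scale (edgeR adjusted p = 0.616). Injury was at -0.02 ± 0.15 on the purified diet and 0.02 ± 0.15 on the fish oil diet. Counts of the annotated copies Fabp5l2 (0 to 2 per library) and Fabp3-ps1 (4 to 31) were small beside those of Fabp5 and Fabp3.

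Acsl3, an acyl-CoA synthetase of the endoplasmic reticulum and lipid droplets, lies at chr1:78657825-78707743. It stood at 237, 232 and 267 CPM in purified sham libraries and at 192, 199 and 213 CPM in purified injured ones. It stood at 243, 239 and 234 CPM in fish oil sham and at 273, 211 and 269 CPM in fish oil injured libraries. The 3 purified injured libraries lay below all 3 purified sham libraries and all 3 fish oil sham libraries. In fish oil injured mice replicate 3 was within the purified injured range and the other 2 were the highest of all 12.

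Group means of Acsl3 were 245 ± 19.2, 201 ± 10.7, 239 ± 4.53 and 251 ± 34.5 CPM (SD, n = 3) in that order. The log2 fold change of injury on the purified diet was -0.29 ± 0.11 (SE; 95% interval -0.53 to -0.04; unadjusted p = 0.0245, edgeR adjusted p = 0.763). Diet in injured mice was at 0.32 ± 0.11 (95% interval 0.08 to 0.56; unadjusted p = 0.0142, edgeR adjusted p = 0.407), and the interaction at 0.36 ± 0.16 (unadjusted p = 0.0415). Both share the purified injured libraries with injury on the purified diet. Diet in sham mice was at -0.04 ± 0.11 and injury on the fish oil diet at 0.07 ± 0.11. Acsl3 had one of the smaller spreads, a biological coefficient of variation of 11.7%, at the 7.70th percentile of all genes. Across the alternatives and left-out libraries, the value for diet in injured mice ran from 0.26 to 0.43 and its lowest edgeR adjusted p was 0.222. Acsl3 shares 244 exon bases with Utp14b on the same strand, at a median of 24.1 CPM.

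Acsl6, the isoform whose loss lowers DHA in mouse brain, lies at chr11:54303798-54364756. It stood at 321, 319.5 and 313 CPM in purified sham and at 275, 290.1 and 252 CPM in purified injured libraries. It stood at 285, 318 and 309 CPM in fish oil sham and at 306, 259 and 383 CPM in fish oil injured libraries. As for Acsl3, the purified injured libraries lay below the purified sham ones without overlap, while fish oil injured libraries covered nearly the whole range. Injury on the purified diet was at -0.22 ± 0.13 on the log2 scale (edgeR adjusted p = 0.778) and on the fish oil diet at 0.05 ± 0.13. Diet in injured mice was at 0.21 ± 0.13, and at 0.04 without fish oil injured replicate 4, the highest library.

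Pla2g6, the calcium-independent phospholipase A2 that is mutated in infantile neuroaxonal dystrophy and can release DHA, lies on the minus strand at chr15:79286228-79328390. It stood at 10.1, 11.4 and 14.2 CPM in purified sham, 16.8, 14.3 and 10.2 in purified injured, 14.4, 13.2 and 13.1 in fish oil sham, and 9.18, 15.7 and 13.2 CPM in fish oil injured libraries. All groups overlapped. The fish oil sham libraries were closest together, and both the highest and the lowest library came from injured mice. Its log2 fold changes in the 4 pairwise comparisons ran from -0.12 to 0.20, each with an SE of 0.22.

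Pla2g4a, the cytosolic calcium-dependent phospholipase A2 that prefers arachidonic acid, lies on the minus strand at chr1:149829618-149961290. It stood at 2.88, 3.55 and 4.92 CPM in purified sham, 3.62, 5.71 and 4.46 in purified injured, 4.68, 3.30 and 2.24 in fish oil sham, and 4.14, 3.37 and 3.46 CPM in fish oil injured libraries. Again all groups overlapped. It had the fewest counts of the 9 genes, down to 139 in a library, and the pairwise fold changes ran from -0.33 to 0.28 on the log2 scale, each with an SE of 0.30. Without purified injured replicate 3, its highest library, those 2 values (diet in injured mice and injury on the purified diet) were -0.15 and 0.11. The biological coefficient of variation was 27.8% for Pla2g4a and 21.3% for Pla2g6.

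Lpcat3, which puts arachidonic and other polyunsaturated chains into phospholipids, lies at chr6:124663027-124704418. It stood at 12.8, 10.3 and 12.5 CPM in purified sham libraries and at 12.5, 13.5 and 11.96 CPM in purified injured ones. It stood at 15.2, 13.4 and 14.4 CPM in fish oil sham and at 13.2, 12.3 and 11.1 CPM in fish oil injured libraries. The 3 fish oil sham libraries were above all purified sham and all fish oil injured libraries, and they overlapped with the purified injured ones. Diet in sham mice was at 0.27 ± 0.13 on the log2 scale (SE; 95% interval -0.02 to 0.55; unadjusted p = 0.0617, edgeR adjusted p = 0.934). Injury on the fish oil diet was at -0.23 ± 0.13 (95% interval -0.51 to 0.05; edgeR adjusted p = 0.999), and the interaction at -0.32 ± 0.18. These comparisons share the fish oil sham libraries. Lpcat3 shares 334 exon bases with Emg1 on the opposite strand, at a median of 22.2 CPM.

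Other genes of the same pathways were taken from 4 lists by role, none of whose members is among the 9. In each list 0 genes passed the edgeR test in any comparison. Of 19 genes of fatty acid transport and acyl-CoA synthesis, 14 were tested, and the others (Fabp1, Fabp2, Fabp4, Fabp6 and Acsbg2) had at most 10 counts in a library. Their median log2 fold changes in the 4 pairwise comparisons ran from -0.04 to 0.10. Above 0 were 8 of 14 for injury on the purified diet, 5 for injury on the fish oil diet, 11 for diet in sham mice and 9 for diet in injured mice. The gene with the smallest p for diet in sham mice was Cd36, a fatty acid translocase, at 2.77 ± 1.18 (edgeR adjusted p = 0.934) and at a mean of 0.390 ± 0.383 CPM in purified sham and 2.70 ± 2.06 CPM in fish oil sham libraries. Slc27a1, a fatty acid transport protein, was at -0.36 ± 0.15 for diet in injured mice (edgeR adjusted p = 0.457).

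All 12 genes of lysophosphatidylcholine supply and transport were tested, with medians from -0.07 to 0.07. Enpp2, the secreted lysophospholipase D that turns lysophosphatidylcholine into lysophosphatidic acid, had group means of 379.6 ± 124, 234 ± 48.7, 265 ± 71.7 and 1206 ± 676 CPM (SD, n = 3; purified sham, purified injured, fish oil sham, fish oil injured). Its log2 fold change was 2.37 ± 0.45 for diet in injured mice (edgeR adjusted p = 0.362). For injured over sham on the fish oil diet it was 2.19 ± 0.45 (edgeR adjusted p = 0.940). The interaction was at 2.89 ± 0.62 (edgeR adjusted p = 0.820). By DESeq2 these 3 passed, at adjusted p of 3.5e-05, 0.000213 and 0.00163, among 186, 37 and 21 of all genes that passed there. By edgeR without fish oil injured replicate 2 the first 2 passed as well, at 2.77 (adjusted p = 0.0152) and 2.59 (adjusted p = 0.0184). Under no other alternative, limma-voom included, did Enpp2 pass. Enpp2 is strongly expressed in choroid plexus, whose 12 markers were all detected in every library. In the fish oil injured group they summed to 249 CPM in replicate 2, the library left out above, and to 2755 and 2615 CPM in replicates 3 and 4. Their part in the result was not tested.

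Of 21 further phospholipases A2, 14 were tested, with medians from -0.07 to -0.01 in the pairwise comparisons. Pla2g4c was at -2.14 ± 0.61 for diet in injured mice (edgeR adjusted p = 0.369), at a mean of 0.712 ± 0.460 CPM in purified injured and 0.160 ± 0.0922 CPM in fish oil injured libraries. Pla2g5, a secreted form, was at 1.41 ± 0.42 for injured over sham on the fish oil diet (edgeR adjusted p = 0.999). Of 17 lysophospholipid acyltransferases and relatives, 16 were tested, with medians from -0.03 to 0.01. Taz, the cardiolipin-remodelling enzyme tafazzin, had means of 49.999 ± 2.94, 49.8 ± 11.5, 41.0 ± 2.41 and 32.9 ± 3.44 CPM in the same order of groups. It was at -0.60 ± 0.15 for diet in injured mice (edgeR adjusted p = 0.362) and -0.44 ± 0.11 for diet averaged over injury states (edgeR adjusted p = 0.451). By DESeq2 both passed, at adjusted p of 0.0472 and 0.0471, among 186 and 99 of all genes that passed there. For diet in injured mice edgeR without purified injured replicate 4 gave -0.78 (adjusted p = 0.0328). Under no other alternative, limma-voom included, did Taz pass. The other genes with the smallest p of a list in some comparison were Acbd3, Acot7, Lcat, Lipg, Agpat2, Lpgat1, Pnpla7 and Pnpla8. Their log2 fold changes there lay between -0.34 (Lipg, diet in sham mice) and 0.86 (Lcat, injury on the purified diet), with edgeR adjusted p from 0.588 (Acot7) to 0.991 (Acbd3).

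The genes whose pattern was most like that of each of the 9 were sought among 10982 or 10983 protein-coding genes with a mean of at least 5 CPM, by Pearson's r of log2 CPM over the 12 libraries. This is a description, since the points share libraries and the tissue differences between them. For Mfsd2a the closest were Epb41l5 (r = 0.904), Clic1 (0.898) and Tfcp2l1 (0.884). For Fabp7 they were Rab3b (0.973), Wnt5a (0.973) and Wnt7a (0.970), for Fabp3 they were Tollip (0.979), Ube2e2 (0.975) and Sept6 (0.970), and for Fabp5 Strap (0.907), Gtf2f2 (0.895) and A2ml1 (0.892). Acsl3 was closest to Kif5b (0.953), Svip (0.926) and Glrx3 (0.907), and Acsl6 to Mxra7 (0.966), Ank1 (0.950) and Cox11 (0.935). Pla2g6 was closest to Kcnj4 (0.936), Necap2 (0.929) and Slc35c2 (0.920), Pla2g4a to Vhl (0.813), Atp6ap1l (0.812) and Smc4 (0.800), and Lpcat3 to Pold2 (0.905), Shtn1 (0.858) and Aifm2 (0.827). Leaving out the 2 libraries farthest from each gene's median, r lay between 0.585 (Lpcat3 with Aifm2) and 0.953 (Fabp7 with Rab3b), and for Mfsd2a with Epb41l5 it was 0.688.

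Among the 36 pairs of the 9 genes, Fabp3 and Fabp7 had the strongest relation over the 12 libraries, r = -0.847, which was -0.62 without the libraries with the highest olfactory bulb and striatal markers and -0.875 for deviations from the group means. Mfsd2a and Fabp7 had r = 0.749, and 0.54 without those 2 libraries and 0.804 within groups. Acsl3 and Acsl6 had r = 0.678, and 0.731 without them and 0.481 within groups.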

How the data were processed

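The deposited file holds raw read counts per gene, whole numbers for 12 libraries. The submitters' processing notes name the aligner STAR 2.5.2a, the counter featureCounts 1.4.3-p1 and the build mm10. Per the labels' protocols, RNA came from a column kit and libraries from a strand-preserving kit, sequenced as paired reads. Not given in the sources used here are annotation release, strand setting and the handling of multi-mapping reads. Values of 2 (20514) outnumber values of 1 (11222), which is what counting both mates of a pair would give in deposited counts. Symbols and positions came from GENCODE M21 on GRCm38, which matched 53274 of 53379 rows.

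The counts were fitted with edgeR 4.0.16 (TMM factors, filterByExpr, robust quasi-likelihood, all 4 groups in one fit, 8 residual degrees of freedom), with Benjamini-Hochberg adjustment over 19252 genes and a threshold of 0.05. Log2 CPM used a prior count of 2. DESeq2 1.42.0, limma-voom (limma 3.58.1), other scalings and filters, the replicate number as a block and leaving out libraries were alternatives. Replicates of a group differed by far more than sampling noise. The procedure was also run on simulated independent counts, with changes in the purified injured group only. These held no tissue differences shared across genes, so that run does not speak to such differences. The 9 genes, the lists and the doubted libraries were chosen with earlier results of these data known. Named genes were all 9, the smallest p of each pathway list in each comparison where none passed, and the most similar 3 per gene.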

Additional observations from a re-analysis of the deposited data

How the results depend on the processing

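Over the alternatives and left-out libraries, 1080 values were recomputed for the 9 genes in 7 comparisons. None passed the threshold, and the lowest adjusted p was 0.188. Of these, 1020 kept their direction and 60 turned sign, the largest of the latter being 0.377 on the log2 scale and at most 1.06 of its own SE. For injury averaged over diets, Fabp5 was at 0.0041 with RLE factors and 0.0040 by DESeq2, and Fabp3 at -0.00029 with upper-quartile factors, -0.0015 with at least 1 CPM in 3 libraries and -0.0066 by limma-voom. Fabp5 was at -0.0026 for injury on the fish oil diet with at least 1 CPM in 3 libraries.

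Without both replicate 3 of purified injured and replicate 2 of fish oil sham, Fabp5 was at 0.093 for injury on the purified diet, 0.052 for injury averaged over diets and -0.082 for the interaction. Without them Fabp7 was at 0.31 for diet averaged over injury states, Mfsd2a at 0.063 and Pla2g4a at 0.28 for the interaction, and 1 gene passed for diet in injured mice. Mfsd2a relative to the endothelial markers was then at 0.44 for fish oil minus purified, and at 0.43 for injured minus sham when Ly6c1, Ly6a and Slco1a4 were left out of the markers. The exact permutation p of these settings, 0.04 and 0.045, are unadjusted. With 1 library left out the 2 differences ran from 0.27 to 0.45 (unadjusted exact permutation p from 0.04 to 0.15) and from 0.33 to 0.52 (0.015 to 0.11).

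With 1 library left out in turn, log2 fold changes that turned sign ran as follows. For injury on the purified diet, Fabp5 ran from -0.21 to 0.093. For injury on the fish oil diet, Fabp5 ran from -0.029 to 0.075, Fabp7 from -0.61 to 0.014, Acsl6 from -0.11 to 0.18, Pla2g6 from -0.28 to 0.089 and Pla2g4a from -0.12 to 0.39. For diet in sham mice, Mfsd2a ran from -0.27 to 0.026, Acsl3 from -0.069 to 0.028 and Pla2g4a from -0.44 to 0.084. For diet in injured mice, Pla2g6 ran from -0.30 to 0.074 and Lpcat3 from -0.11 to 0.0027. For injury averaged over diets, Fabp3 ran from -0.063 to 0.082, Fabp5 from -0.10 to 0.053 and Pla2g6 from -0.038 to 0.15. For diet averaged over injury states, Fabp7 ran from -0.74 to 0.38, Acsl6 from -0.0087 to 0.14 and Pla2g6 from -0.054 to 0.13. For the interaction, Mfsd2a ran from -0.27 to 0.12, Fabp5 from -0.081 to 0.21 and Pla2g4a from -0.41 to 0.10.

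The count of all genes passed, 0 in each comparison by edgeR, rested on the tool and on single libraries. DESeq2 passed 14 for injury on the purified diet, 37 for injury on the fish oil diet, 17 for diet in sham mice, 186 for diet in injured mice, 3 and 99 for the injury and diet averages and 21 for the interaction. Limma-voom passed 1 for injury on the fish oil diet and 2 for the injury average. Without a filter on low counts, 1 passed for the injury average and 2 for the diet average. Leaving out 1 library gave 0 to 83 for diet in injured mice (83 without purified injured replicate 4), 0 to 6 for the diet average and 0 to 7 for injury on the fish oil diet. The cause was not tested.

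The replicate numbers were shared between groups. Of 18 same-numbered pairs, 3 had correlated deviations above 0.1, which with so few libraries cannot show whether the numbers pair them. Within each group the library names of replicates 3 and 4 share a leading number. What that number stands for is not known here, and it was not modelled. With the replicate number as a block, 0 genes passed in each comparison and Fabp3 was at -0.0014 for injury averaged over diets. With the principal transcript length, chosen after seeing the data, median RPKM was 67.1 for Fabp5, 118 for Acsl6, 3.92 for Pla2g6, 1.26 for Pla2g4a and 5.57 for Lpcat3. With 3 libraries a group, the 95% interval of Mfsd2a for diet averaged over injury states, -0.51 to 0.13, shows the size of difference these data still allow.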
